A study of Mus musculus with 4 samples.

Results

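Interferon-stimulated genes and interferon regulatory factors (IRFs) were examined in mouse T helper 17 (Th17) cultures as 41 named genes of the 34745 gene rows in the deposited table, and all 41 were found by symbol. They comprise 4 interferon receptor chains, 7 IRFs other than Irf4, 4 nucleic acid sensors, 24 effectors and GTPases, and the ubiquitin-like modifier Isg15 with its protease Usp18. Naive CD4+ T cells from the spleens of C57BL/6 mice were cultured for 3 days in Th17 conditions, and their RNA was sequenced in 2 wild-type (WT) libraries, replicates 13 and 15, and 2 Setd2-CD4 cre libraries, replicates 22 and 24. Setd2 encodes the methyltransferase that trimethylates lysine 36 of histone H3. The second genotype joins a Setd2 allele to Cre driven by Cd4 sequences, which are known to act in T cells from the thymus onwards. The labels do not name the Setd2 exons removed, the ages or number of the mice, or whether each library came from its own mouse or culture. The p-values therefore measure only the spread between these libraries, which may be technical.

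Interferons act through paired receptor chains, JAK kinases and STAT factors. Type I interferons act through a factor complex that holds STAT2 and IRF9 and binds interferon-stimulated response elements, and interferon gamma acts through gamma-activated sequences. The induced genes include sensors of foreign nucleic acid, enzymes that block viral replication and GTPases that attack intracellular vacuoles. In Th17 cells both kinds of interferon are known as restraints on interleukin 17 production. In liver cells SETD2 has been reported to take part in the interferon response and to mark some interferon-stimulated genes, which gives these genes an interest in cells of this genotype.

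Libraries held 11007343 to 12518415 counts over 15882 to 16307 genes. All 11 markers of CD4+ T and Th17 cells had counts in every library. Setd2 stood at 184 and 176 CPM (counts scaled to library size, here with TMM factors) in WT against 144 and 153 in Setd2-CD4 cre, with a log2 fold change of -0.28 (edgeR SE 0.10 and adjusted p = 0.0748), over the whole gene and not over the deleted part, so it is no direct check of the deletion. Markers of B cells were higher in both Setd2-CD4 cre libraries. Their sum over 10 genes was 251 and 212 CPM in WT and 702 and 511 CPM in Setd2-CD4 cre, and 9 of the 10 passed the test at an edgeR adjusted p of 0.05, where 16.2% of all 12927 genes tested were higher and 14.5% lower (30.7% in all). Of the other marker lists, 4 of 5 tested plasmacytoid dendritic cell genes, 3 of 5 conventional dendritic cell genes and 3 of 6 CD8 T and NK cell genes were higher and 1 plasmacytoid dendritic cell gene lower, while none of the 4 tested monocyte and macrophage genes or the 2 neutrophil genes passed.

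Promoters are shown because both kinds of interferon act through the sequence elements named above. RefSeq windows (GRCm38.p6) from 250 bases before to 50 bases after a transcript start were at hand for 33 of the 41 genes, in 41 windows. The core of the response element, GAAA, any 2 bases and GAAA on either strand, was present in 17 of these windows and in 16 genes, against 3.44% of all 32851 promoter windows of the same length. The core of the gamma-activated sequence, TTC, any 3 bases and GAA, was present in 11 windows and 11 genes, against 8.3% of all windows. Usp18, Dhx58, Zbp1, Ifi27l2a, Mx1, Mx2, Oas2 and Rtp4 had no window and were not searched. Stretches around the response element core follow for the 6 genes that differed between genotypes and held a match. After them come the 2 most abundant genes per length that held one and did not pass the test. Capitals mark the core, which reads TTTC, 2 bases and TTTC where it lies on the opposite strand, and each stretch runs in the direction of transcription.
Irf2: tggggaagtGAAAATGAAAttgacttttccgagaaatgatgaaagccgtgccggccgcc
Ddx58: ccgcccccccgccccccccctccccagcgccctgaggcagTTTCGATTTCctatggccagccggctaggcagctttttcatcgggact
Rsad2: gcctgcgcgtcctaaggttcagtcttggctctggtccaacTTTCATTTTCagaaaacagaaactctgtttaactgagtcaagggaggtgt
Gbp7: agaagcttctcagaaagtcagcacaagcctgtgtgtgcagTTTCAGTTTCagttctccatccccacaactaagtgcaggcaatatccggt
Gbp2: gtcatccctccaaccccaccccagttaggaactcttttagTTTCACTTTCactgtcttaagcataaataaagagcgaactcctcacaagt
Trim30a: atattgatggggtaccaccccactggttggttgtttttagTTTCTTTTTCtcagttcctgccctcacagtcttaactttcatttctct
Bst2: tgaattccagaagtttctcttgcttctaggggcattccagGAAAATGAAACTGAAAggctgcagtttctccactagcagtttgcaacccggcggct
Igtp: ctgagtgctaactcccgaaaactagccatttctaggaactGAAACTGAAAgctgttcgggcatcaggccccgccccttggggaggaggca
The stretches lie at chr8:46739495-46739553 (plus strand), chr4:40239776-40239863 (minus), chr12:26456523-26456612 (minus), chr3:142530243-142530332 (plus), chr3:142620564-142620653 (plus), chr7:104446076-104446163 (minus), chr8:71537547-71537642 (minus) and chr11:58199482-58199571 (plus). The core began 59 bases before the start in Gbp2, 53 before it in Gbp7, 120 before it in Rsad2 and 241 before it in Irf2. In Ddx58, and at the inner of the RefSeq starts of Trim30a, it began 2 bases after the start. Bst2 carried overlapping copies, printed as 1 run of capitals. The 16 genes with the response element core included 2 that were higher and 4 that were lower in Setd2-CD4 cre, with log2 fold changes from -0.95 to 1.43 and a median of 0.05, where 16.2% of all genes were higher and 14.5% lower. Among the 14 tested genes whose windows held none, 1 was lower and the median log2 fold change was 0.17. Genes that share the element thus moved in both directions, and a match of these letters is not evidence of binding.

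The comparison of genotypes asks how Setd2 shapes RNA levels in Th17 cells. Of the 41 interferon genes, 37 had enough counts to be tested, 3 were higher in Setd2-CD4 cre and 6 lower by edgeR's quasi-likelihood test at a Benjamini-Hochberg adjusted p of 0.05. That is 24.3% of those tested, against 30.7% of all 12927 genes tested, of which 16.2% were higher and 14.5% lower. The share among interferon genes was not above the background. Libraries of the 2 genotypes did not overlap for 28 of the 37 genes (75.7%), against 70.7% of all genes. The median log2 fold change of the 37 was 0.11 and that of all genes was -0.01. Irf2, Usp18 and Rsad2 rose, and Ddx58, Dhx58, Gbp7, Gbp2, Trim30a and Irf3 fell. Irf2, Usp18 and Ddx58 passed under all 9 alternative settings tried, and the other 6 lost their calls when WT 13 or WT 15 was left out. Leaving out WT 13 left 2 interferon genes higher and 1 lower, against 6.88% and 5.5% of all genes (12.4% in either direction). Leaving out WT 15 gave 2 and 1, against 5.4% and 4.24% (9.63%). The counts were 7 and 6 with Setd2-CD4 cre 22 left out, against 19.7% and 17.3% (37.1%), and 8 and 9 with Setd2-CD4 cre 24 left out, against 22.8% and 21.6% (44.3%). Scaling by library totals in place of TMM called 3 interferon genes higher and 7 lower, against 10.9% and 22.3% of all genes. Upper-quartile factors called 3 and 6, against 12.1% and 20.2%.

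**Figure D1:**
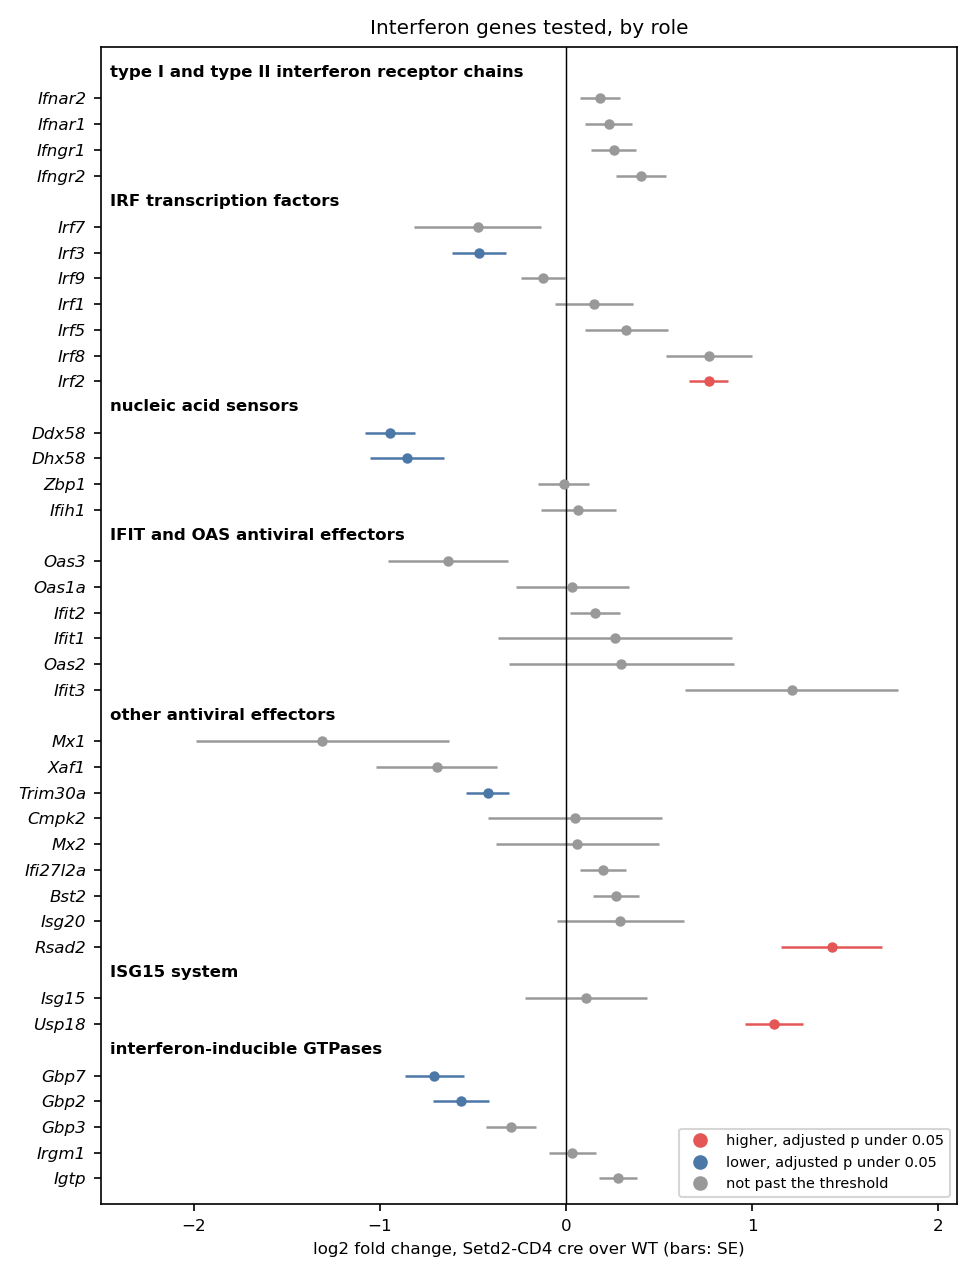
Log2 fold change of Setd2-CD4 cre over WT (x axis, bars are SE) for the 37 tested interferon genes, grouped by role. The 3 genes higher (red) and 6 lower (blue) past an edgeR adjusted p of 0.05 are spread over 5 of the 7 roles, and the other 28 (grey) include all 4 receptor chains.

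The receptor chains Ifngr1 and Ifngr2 bind interferon gamma, and Ifnar1 and Ifnar2 bind type I interferons. Ifngr1 was the most abundant chain per length, with 97.1 and 94.6 FPKM (fragments scaled to gene length and library size) in WT 13 and 15 and 92.9 and 113 FPKM in Setd2-CD4 cre 22 and 24. Ifngr2 stood at 31.3 and 32.9 FPKM in WT and 42.0 and 34.1 FPKM in Setd2-CD4 cre. Ifnar1 (16.3, 15.0, 14.6 and 18.5 FPKM in the same order) and Ifnar2 (15.2, 14.8, 15.4 and 15.2 FPKM) lay close together. None of the 4 chains passed the test. On the TMM scale their log2 fold changes were 0.26 for Ifngr1 (edgeR SE 0.12 and adjusted p = 0.141), 0.40 for Ifngr2 (SE 0.14, 0.0560), 0.23 for Ifnar1 (SE 0.13, 0.206) and 0.18 for Ifnar2 (SE 0.11, 0.230). All 4 values were positive under each setting tried, and in scaled CPM the genotypes did not overlap for any chain, as for 70.7% of all genes, while in FPKM those of Ifngr1 and Ifnar1 did overlap. Ifngr2 passed without Setd2-CD4 cre 24 (0.57, edgeR adjusted p = 6.143e-05) and with no filter on low counts (adjusted p = 0.0309), and Ifngr1 and Ifnar1 passed without Setd2-CD4 cre 22 (0.38, adjusted p = 0.00172, and 0.37, adjusted p = 0.00509). Ifnar2, Ifnar1 and Ifngr2 lie within 192.8 kb of each other on chromosome 16.

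Among the IRFs, Irf2 rose. IRF2 binds the same element as IRF1 and is known as an antagonist of IRF1 and of type I interferon responses. Irf2 (ENSMUSG00000031627, chromosome 8, 46739732 to 46847458 in GRCm38) had 1670 and 1546 counts in WT 13 and 15 and 2102 and 2314 counts in Setd2-CD4 cre 22 and 24. Scaled to library size these were 127, 118, 205 and 212 CPM, so both Setd2-CD4 cre libraries lay above both WT libraries, with a narrow spread within each genotype. The mean went from 123 ± 6.80 to 208 ± 5.23 CPM (SD, n = 2 each), 1.70-fold higher (log2 fold change 0.77, edgeR SE 0.11 and adjusted p = 0.00245). Per length Irf2 was the most abundant of the 7 IRFs examined, at 51.9 ± 2.52 FPKM in WT and 79.6 ± 3.82 FPKM in Setd2-CD4 cre (SD, n = 2 each).

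Irf3 fell. IRF3 is the factor that sensors of viral nucleic acid activate to switch on interferon beta. Irf3 (ENSMUSG00000003184, chromosome 7, 44997648 to 45002848) had 1183 and 1043 counts in WT against 559 and 742 in Setd2-CD4 cre, or 90.2, 79.4, 54.5 and 68.0 CPM. The genotypes did not overlap, though Setd2-CD4 cre 24 came close to WT 15. Its log2 fold change was -0.47 (edgeR SE 0.14 and adjusted p = 0.0411). The call, though not the direction, was lost with DESeq2 (-0.46, adjusted p = 0.0520), without WT 13 (-0.38, 0.254) and without WT 15 (-0.56, 0.106). Irf3 overlaps Bcl2l12 on the opposite strand, which had 334 and 330 counts in WT against 209 and 176 in Setd2-CD4 cre. Whether strand was used in counting is not stated, so reads from the overlap cannot be assigned.

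Irf8, a factor of B cell, dendritic cell and myeloid development, had 62.4 and 68.3 CPM in WT 13 and 15 and 138 and 84.5 CPM in Setd2-CD4 cre 22 and 24. The genotypes did not overlap, but replicate 22 stood 1.63-fold above replicate 24, and Irf8 missed the threshold (log2 fold change 0.77, edgeR SE 0.23 and adjusted p = 0.0520). It passed with DESeq2 (0.78, adjusted p = 0.00658), with DESeq2 size factors in edgeR (adjusted p = 0.0499) and after either Setd2-CD4 cre library was left out, at 0.38 with 24 alone (adjusted p = 0.0157) and at 1.08 with 22 alone (adjusted p = 1.224e-08). Within Setd2-CD4 cre, replicate 22 was also above 24 in the summed markers of B cells (702 and 511 CPM), of plasmacytoid dendritic cells (149 and 130 CPM in WT, 318 and 257 CPM in Setd2-CD4 cre, over 8 genes) and of conventional dendritic cells (61.8 and 57.0 CPM, then 174 and 117 CPM, over 8 genes). The CD8 T and NK cell sum was higher in 22 too (223 and 243 CPM in WT, 495 and 310 CPM in Setd2-CD4 cre). Monocyte and macrophage markers were nearly level between 22 and 24, and the CD4+ T and Th17 and neutrophil sums were lower in 22. The conventional dendritic cell sum came mostly from H2-Aa and H2-Ab1 (86.1 and 54.1 CPM in replicate 22), MHC class II genes that B cells also express. Flt3 of the same list was also higher, with 34 and 53 counts in WT against 219 and 120 in Setd2-CD4 cre. Its log2 fold change was 2.28 (edgeR SE 0.38 and adjusted p = 0.00659). Cd209a had 0 counts in every library. Xcr1 (1 and 0 counts in WT) and Clec9a (8 and 0) had 0 counts in both Setd2-CD4 cre libraries. These 3 genes were too low to be tested. Itgax stood at 9.30 and 7.16 CPM in WT against 5.65 and 5.50 CPM in Setd2-CD4 cre. Neither Itgax (edgeR adjusted p = 0.125) nor Zbtb46 (0.425) passed. The part of these cells in the result was not tested. In bulk RNA, more or fewer cells of a type and more or less RNA per cell cannot be told apart. Siglech, a defining gene of plasmacytoid dendritic cells, had 0 counts in every library, which allows up to 3 counts in each. Klk1 of that list also had 0 counts and Ccr9 too few to be tested. Spib, Tcf4, Cox6a2 and Runx2 of it were higher in Setd2-CD4 cre, and Pacsin1 was lower.

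Of the remaining IRFs, Irf1, the main factor of the interferon gamma response, stood at 66.0 and 77.7 CPM in WT against 96.6 and 63.0 CPM in Setd2-CD4 cre, which overlap. Its log2 fold change was 0.15 (edgeR SE 0.21 and adjusted p = 0.611). It was -0.18 with replicate 24 as the lone Setd2-CD4 cre library and 0.43 with replicate 22 (adjusted p = 0.00544). Irf9, a DNA-binding partner of STAT2, stood at 57.6, 57.6, 52.0 and 53.7 CPM (-0.12, edgeR SE 0.12 and adjusted p = 0.446). Irf7, which amplifies type I interferon production, was scarce, with 89 and 57 counts in WT against 34 and 51 in Setd2-CD4 cre (-0.47, edgeR SE 0.34 and adjusted p = 0.317). Irf5, which acts below Toll-like receptors in myeloid and B cells, had 99 and 126 counts in WT against 115 and 112 in Setd2-CD4 cre (0.32, edgeR SE 0.22 and adjusted p = 0.293). The last 3 each overlap another gene (Rnf31, Phrf1 and Tnpo3) that had more counts in every library.

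**Figure D2:**
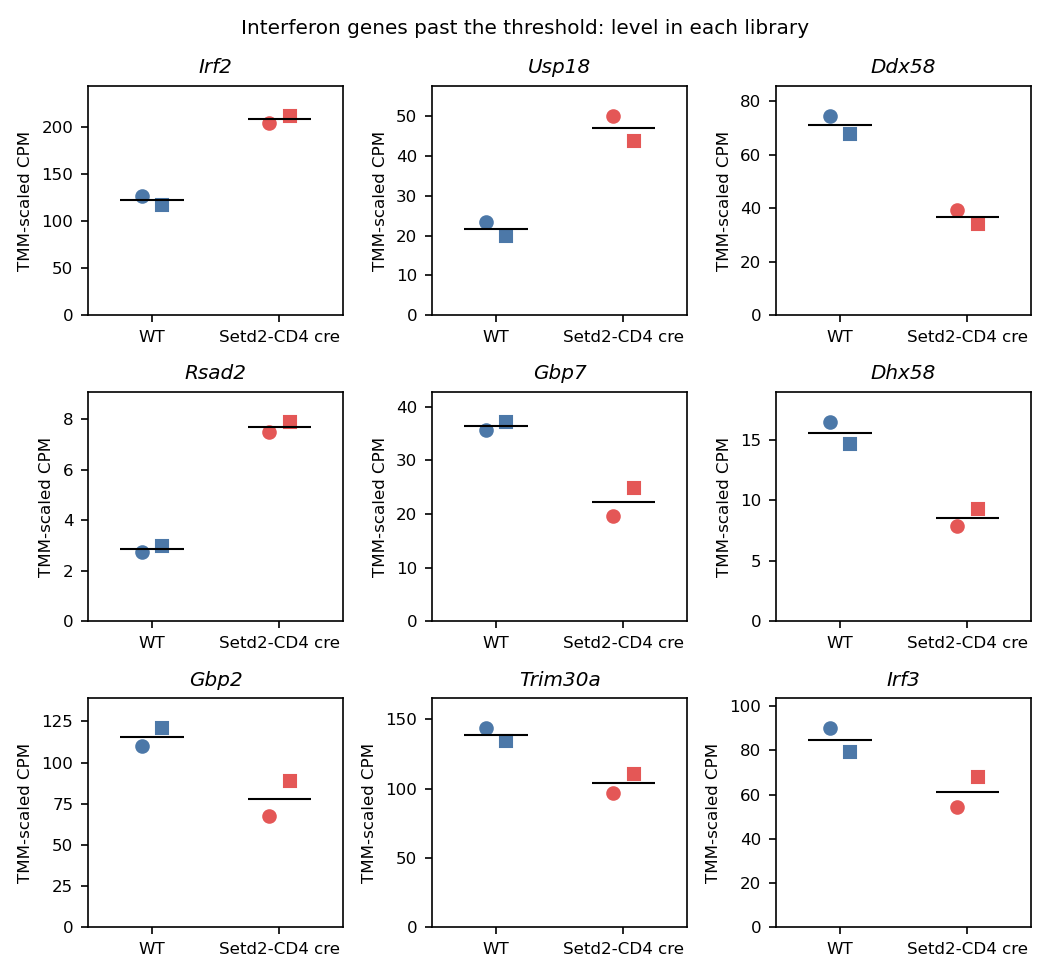
TMM-scaled CPM (y axis, from 0) in each library for the 9 interferon genes past the threshold, in order of adjusted p. Circles are replicates 13 and 22, squares are replicates 15 and 24, and lines are means of 2 libraries. The genotypes do not overlap in any panel, and Irf2 reaches 205 and 212 CPM in Setd2-CD4 cre against 127 and 118 CPM in WT.

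Of the 4 nucleic acid sensors among the 41 genes, 2 fell, where 14.5% of all genes did. Ddx58 encodes RIG-I, the helicase that recognises RNA ends lacking a cap, and Dhx58 encodes LGP2, a related helicase without signalling domains that tunes the family. Ddx58 (ENSMUSG00000040296, chromosome 4, 40203773 to 40239828) had 977 and 890 counts in WT against 406 and 373 in Setd2-CD4 cre, or 74.5, 67.8, 39.6 and 34.2 CPM. Each Setd2-CD4 cre library was well under each WT library, and the mean fell from 71.1 ± 4.76 to 36.9 ± 3.78 CPM (SD, n = 2 each), with a log2 fold change of -0.95 (edgeR SE 0.13 and adjusted p = 0.00274). Dhx58 (chromosome 11, 100694884 to 100704271) had 216 and 192 counts in WT against 81 and 101 in Setd2-CD4 cre, or 16.5, 14.6, 7.89 and 9.26 CPM. The genotypes did not overlap and the log2 fold change was -0.86 (edgeR SE 0.20 and adjusted p = 0.0159). The call was lost without WT 13 (-0.77, adjusted p = 0.141) or WT 15 (-0.94, adjusted p = 0.0752).

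Ifih1, which encodes MDA5, the third helicase of the family and a sensor of long double-stranded RNA, stood at 17.3 and 17.7 CPM in WT against 15.1 and 21.5 CPM in Setd2-CD4 cre. The WT values fell between those of Setd2-CD4 cre (log2 fold change 0.07, edgeR SE 0.20 and adjusted p = 0.826). Zbp1, a sensor of left-handed nucleic acids, held 27.4, 26.5, 26.3 and 27.1 CPM (-0.01, edgeR SE 0.14 and adjusted p = 0.949). The 4 libraries of Zbp1 were nearly level. Per length it was below Ddx58 in WT (5.88 ± 0.106 against 6.86 ± 0.411 FPKM) and above it in Setd2-CD4 cre (5.24 ± 0.236 against 3.20 ± 0.255 FPKM, SD, n = 2 each). No test of the difference between Ddx58 or Dhx58 and these 2 genes was made.

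IFIT proteins bind foreign RNA, and OAS enzymes make oligoadenylates that activate RNase L. None of the 6 genes of these families that were tested among the 41 passed. Ifit2, the most abundant per length, had 383 and 382 counts in WT against 330 and 358 in Setd2-CD4 cre, or 29.2, 29.1, 32.1 and 32.8 CPM (log2 fold change 0.16, edgeR SE 0.13 and adjusted p = 0.397). Its neighbours on chromosome 19 were nearly silent, with Ifit1 at 29, 9, 12 and 25 counts and Ifit3 at 12, 5, 17 and 15 counts. Ifit3 thus had the second largest positive log2 fold change of the 37 genes (1.21, edgeR SE 0.57 and adjusted p = 0.140) on very few reads, and its value was 0.72 without WT 15 and 1.96 without WT 13.

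Oas3 had 15.7 and 13.4 CPM in WT and 6.14 and 12.6 CPM in Setd2-CD4 cre. The fall lay mostly in replicate 22 (log2 fold change -0.63, edgeR SE 0.32 and adjusted p = 0.172, -0.20 without 22 and -1.24 with an adjusted p of 0.000172 without 24). Oas1a held 51 and 46 counts in WT against 41 and 39 in Setd2-CD4 cre (0.03, edgeR SE 0.30 and adjusted p = 0.942), and Oas2 held 17, 11, 7 and 21 counts, highest and lowest within Setd2-CD4 cre. Of the further OAS genes, Oas1b and Oas1c fell. Their log2 fold changes were -0.94 (edgeR SE 0.22 and adjusted p = 0.0170) and -1.17 (SE 0.31, 0.0256). Oasl1 (0, 2, 6 and 8 counts) and Oasl2 (4, 4, 4 and 12 counts) were too low to be tested. With so few counts, the lack of a call in the near-silent genes does not show that their levels were equal.

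Rsad2 rose among the other antiviral effectors. It encodes viperin, a radical enzyme that makes a chain-terminating nucleotide. Rsad2 (chromosome 12, 26442746 to 26456452) had 36 and 39 counts in WT against 77 and 86 in Setd2-CD4 cre, or 2.74, 2.97, 7.50 and 7.88 CPM. Both Setd2-CD4 cre libraries exceeded both WT libraries, 2.69-fold on average in the fit (log2 fold change 1.43, edgeR SE 0.27 and adjusted p = 0.00799), the largest rise of the 37 genes. The call was narrowly lost without WT 13 (adjusted p = 0.0576) or WT 15 (0.0503), and the log2 fold change stayed between 1.27 and 1.48 over all 9 alternatives. Even so Rsad2 remained scarce, at 0.622 ± 0.0388 FPKM in WT and 1.51 ± 0.0877 FPKM in Setd2-CD4 cre (SD, n = 2 each).

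Cmpk2, a nucleotide kinase gene that lies 12.75 kb from Rsad2 and is read in the opposite direction, had 15, 15, 12 and 13 counts. These were 1.14, 1.14, 1.17 and 1.19 CPM (log2 fold change 0.05, edgeR SE 0.47 and adjusted p = 0.948). Its 4 values were nearly level, on too few reads for a precise fold change.

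Trim30a, a tripartite-motif protein of mice reported to restrain Toll-like receptor signalling, fell. It had 1887 and 1764 counts in WT against 996 and 1208 in Setd2-CD4 cre, or 144, 134, 97.0 and 111 CPM, without overlap (log2 fold change -0.42, edgeR SE 0.12 and adjusted p = 0.0294). The call was lost without WT 13 (adjusted p = 0.223) or WT 15 (0.139). Trim30a (chromosome 7, 104409025 to 104465193) belongs to a family of similar genes, and how shared reads were split is not stated.

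The most abundant genes of all 41 per length were Ifi27l2a, at 203 and 173 FPKM in WT and 194 and 194 FPKM in Setd2-CD4 cre, and, after Ifngr1, Bst2, which encodes the virion tether tetherin, at 68.2, 67.5, 76.5 and 70.7 FPKM. Neither passed (log2 fold change 0.20, edgeR SE 0.12 and adjusted p = 0.251 for Ifi27l2a, and 0.27, SE 0.12, adjusted p = 0.130 for Bst2), though Bst2 did without Setd2-CD4 cre 24 (0.0240). The WT values of Ifi27l2a enclosed both Setd2-CD4 cre values in FPKM. Xaf1, a proapoptotic gene, had 90 and 128 counts in WT against 39 and 70 in Setd2-CD4 cre (-0.70, edgeR SE 0.32 and adjusted p = 0.136), and passed only without Setd2-CD4 cre 24 (-1.12, adjusted p = 0.00732).

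Mx1 and Mx2 encode dynamin-like GTPases, and C57BL/6 mice are known to carry a defective Mx1 allele. Mx1 had 18, 13, 2 and 8 counts (log2 fold change -1.31, edgeR SE 0.68 and adjusted p = 0.173; leaving out Setd2-CD4 cre 22 gave -0.67 and leaving out 24 gave -2.53, adjusted p = 0.0696), and Mx2 had 21, 17, 15 and 17. Isg20, an exonuclease gene, had 36, 34, 38 and 31 counts. Ifi44 (3, 0, 0 and 0 counts) and Rtp4 (6, 4, 1 and 2 counts) were too low to be tested.

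**Figure D3:**
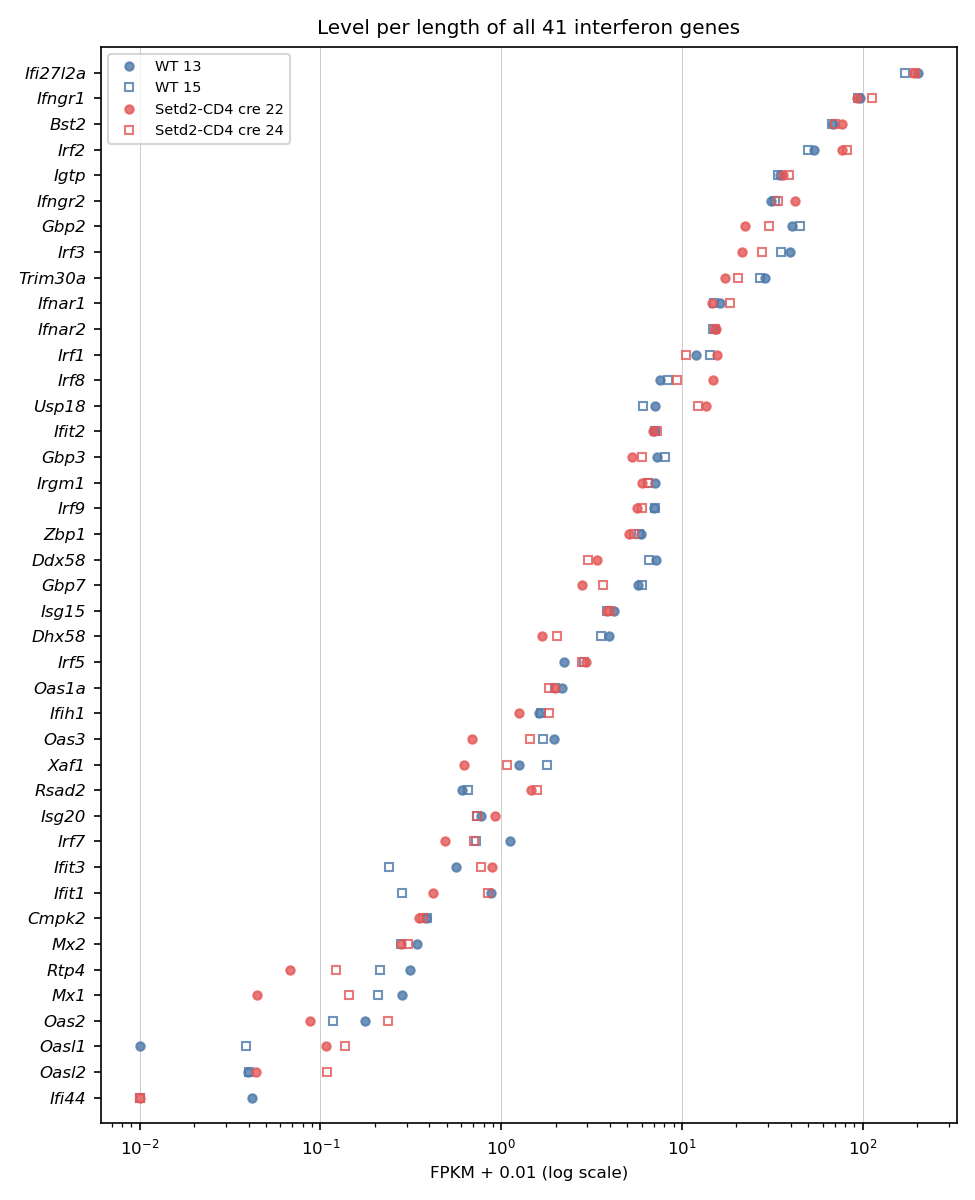
FPKM plus 0.01 (x axis, log scale) of all 41 interferon genes in each of the 4 libraries, in order of mean level. Blue marks WT and red Setd2-CD4 cre. The genes run from Ifi44, with counts in 1 library, to Ifi27l2a at 173 to 203 FPKM, and Usp18, Rsad2 and Irf2 are shifted to the right in both Setd2-CD4 cre libraries.

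Of the ISG15 system, only the protease gene passed. USP18 removes ISG15 from proteins and, bound to the IFNAR2 chain, dampens type I interferon signalling. Usp18 (ENSMUSG00000030107, chromosome 6, 121245906 to 121270917) had 307 and 260 counts in WT against 513 and 477 in Setd2-CD4 cre, or 23.4, 19.8, 49.97 and 43.7 CPM. Each Setd2-CD4 cre library was above each WT library, and the mean rose from 21.6 ± 2.55 to 46.9 ± 4.41 CPM (SD, n = 2 each), 2.17-fold (log2 fold change 1.12, edgeR SE 0.15 and adjusted p = 0.00249). Isg15 itself had 40 and 36 counts in WT against 32 and 34 in Setd2-CD4 cre, or 3.05, 2.74, 3.12 and 3.12 CPM (0.11, edgeR SE 0.33 and adjusted p = 0.826). Its promoter held 3 overlapping copies of the response element core.

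Guanylate-binding proteins (GBPs) and immunity-related GTPases assemble on vacuoles that hold pathogens and are strongly induced by interferon gamma. Gbp7, Gbp3 and Gbp2 lie within 107.7 kb on chromosome 3 (142530342 to 142638008), and all 3 had negative log2 fold changes under every setting tried. Gbp2, the most abundant of the 3, had 1443 and 1590 counts in WT against 693 and 968 in Setd2-CD4 cre, or 110.03, 121, 67.5 and 88.8 CPM. The genotypes did not overlap (log2 fold change -0.56, edgeR SE 0.15 and adjusted p = 0.0253), and the call was lost without WT 13 (adjusted p = 0.0684) or WT 15 (0.158).

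Gbp7 had 467 and 488 counts in WT against 202 and 271 in Setd2-CD4 cre, or 35.6, 37.2, 19.7 and 24.8 CPM, again without overlap. Its log2 fold change was -0.71 (edgeR SE 0.16 and adjusted p = 0.0144), and the call was lost without WT 13 (adjusted p = 0.0648) or WT 15 (0.106). Gbp3, at 42.2, 46.1, 34.2 and 37.7 CPM, did not pass (-0.30, edgeR SE 0.13 and adjusted p = 0.127), and did so with library totals (adjusted p = 0.0419) and without Setd2-CD4 cre 24 (0.0404). Of the further GBP genes, Gbp5, also on chromosome 3, fell (log2 fold change -0.87, edgeR adjusted p = 0.00472). On chromosome 5, Gbp6 (1.11, edgeR adjusted p = 0.00684), Gbp8 (0.42, 0.0455) and Gbp10 (1.91, 0.00673) rose. Gbp4 and Gbp9, on the same chromosome, did not pass. The GBP genes thus moved in both directions, where 16.2% of all genes rose and 14.5% fell. GBP genes are similar in sequence, so reads shared between them are uncertain.

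The immunity-related GTPase genes did not move together. Igtp and Irgm1 did not pass. Of the further genes of this family, Tgtp1 and Tgtp2 fell (log2 fold changes -2.03 and -1.05, edgeR adjusted p = 0.00146 and 0.00903). Irgm2 did not pass (-0.02, edgeR adjusted p = 0.945). Igtp was below Gbp2 per length in WT (34.5 ± 0.737 against 43.0 ± 3.20 FPKM) and above it in Setd2-CD4 cre (37.7 ± 2.14 against 26.2 ± 5.63 FPKM, SD, n = 2 each). Igtp, with 2247 and 2162 counts in WT against 2041 and 2275 in Setd2-CD4 cre, stood at 171, 165, 199 and 209 CPM (log2 fold change 0.28, edgeR SE 0.10 and adjusted p = 0.0719). It passed with either Setd2-CD4 cre library left out (adjusted p = 0.0102 without 22 and 0.0392 without 24), and it overlaps Irgm2 on the same strand. Irgm1 overlapped between genotypes, at 49.4, 44.7, 47.0 and 49.3 CPM (0.03, edgeR SE 0.13 and adjusted p = 0.862). No difference between the GBP genes and Igtp or Irgm1 was tested.

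**Figure D4:**
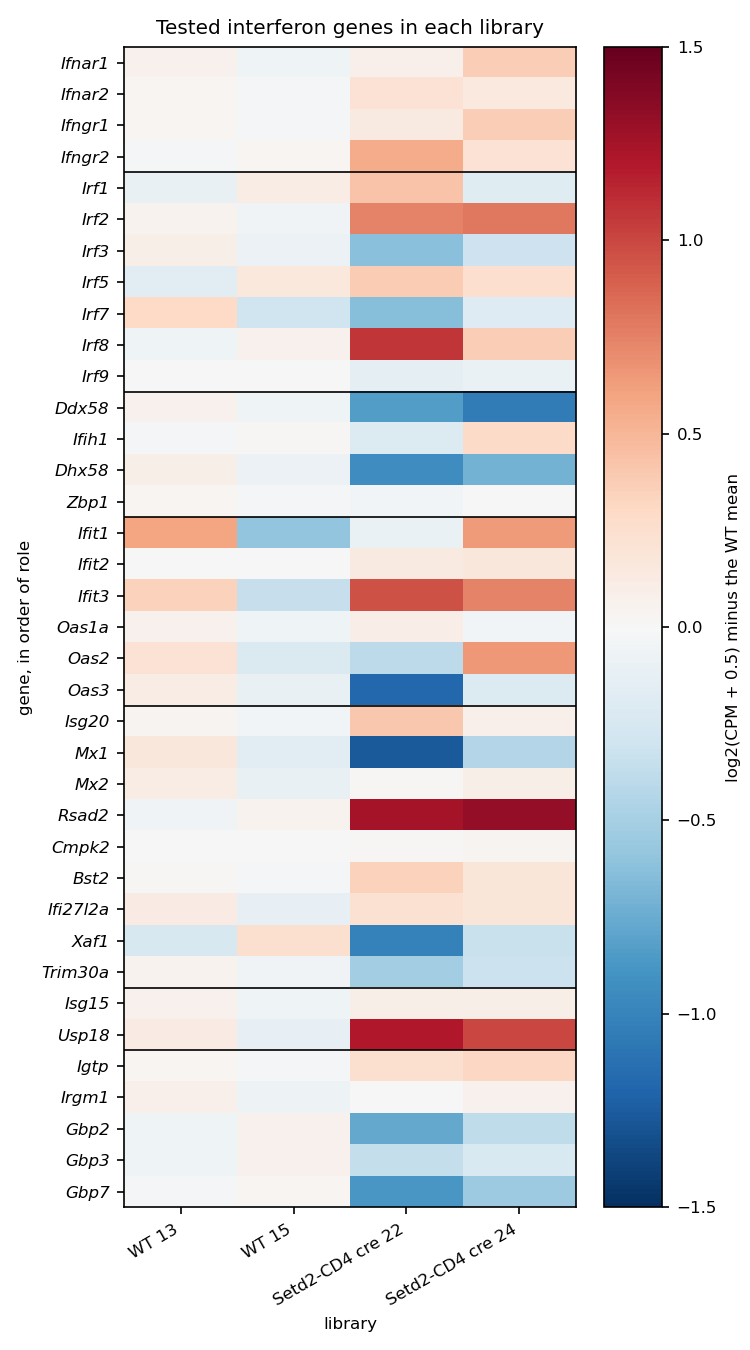
Log2(CPM + 0.5) minus the WT mean (colour, from -1.5 to 1.5) of the 37 tested interferon genes in each library, with lines between roles. Irf2, Rsad2 and Usp18 are red and Ddx58, Dhx58, Gbp2 and Gbp7 blue in both Setd2-CD4 cre libraries, while Oas2 and Ifih1 differ in colour between them.

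The genes also varied between replicates of 1 genotype, as the heat map by library shows. Between Setd2-CD4 cre 22 and 24, 7 of the 37 tested genes differed by over 1.5-fold. Irf1 and Irf8 were higher in 22, and Ifit1, Oas2, Oas3, Mx1 and Xaf1 were lower in 22. Over all tested genes, 7.75% were above and 8.73% below that limit. Between WT 13 and 15, 4 genes differed by as much (Irf7, Ifit1, Ifit3 and Oas2), all higher in 13, where 4.43% of all genes were above and 4.66% below. Most of these genes have few counts, so counting error contributes to the ratios.

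By level, 12 of the 41 genes had a mean under 1 FPKM over the 4 libraries and 28 under 10 FPKM. The 12 include the classical type I interferon targets Ifit1, Ifit3, Mx1, Mx2, Oas2, Oasl1, Oasl2, Ifi44, Cmpk2 and Rtp4. Levels per length above 50 FPKM were reached by Ifi27l2a, Ifngr1, Bst2 and Irf2. In WT the order was Ifi27l2a (188 ± 21.3 FPKM), Ifngr1 (95.8 ± 1.76), Bst2 (67.8 ± 0.490) and Irf2 (51.9 ± 2.52), each gap being wider than the SDs (n = 2 each). In Setd2-CD4 cre the order of the last pair was the opposite, with Irf2 at 76.9 and 82.3 FPKM and Bst2 at 76.5 and 70.7 FPKM, close enough that their SDs (3.82 and 4.04 FPKM) meet.

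Around these genes, 104 further genes of interferon signalling were counted, of which 103 were in the table and 89 were tested. By edgeR 19 rose and 20 fell, against 16.2% and 14.5% of all genes, with a median log2 fold change of -0.14 against -0.01 for all genes. The split turned on the scaling, with 13 higher and 27 lower by library totals (10.9% and 22.3% of all genes) and 14 and 25 by upper-quartile factors (12.1% and 20.2%). Leaving out WT 13 gave 11 and 10 (12.4% of all genes called) and leaving out WT 15 gave 10 and 9 (9.63%). With Setd2-CD4 cre 22 left out the counts were 24 and 24 (37.1%), and with 24 left out they were 22 and 29 (44.3%). Of the interferon genes themselves, Ifnb1, Ifna1, Ifna2, Ifna4, Ifna5 and Ifnk had 0 counts in every library, which allows up to 3 counts in each, and Ifne had 2 counts in 1 library. Ifng had 86 and 84 counts in WT against 56 and 41 in Setd2-CD4 cre (log2 fold change -0.49, edgeR SE 0.29 and adjusted p = 0.220). Its libraries did not overlap in CPM, but the difference did not pass under any setting.

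The lists that follow are each read against those 16.2% of all genes higher and 14.5% lower, 30.7% together, and nothing particular to a list is drawn from its count. Of 6 receptor-proximal kinases and STATs, 2 were higher and none lower, a share near the 30.7% of all genes. Stat3, the factor downstream of interleukins 6 and 23, had 414 and 400 CPM in WT and 762 and 719 CPM in Setd2-CD4 cre (log2 fold change 0.86, edgeR SE 0.11 and adjusted p = 0.002), clear of overlap. Jak2 rose less (0.44, edgeR SE 0.11 and adjusted p = 0.0202) and passed in 6 of the 9 alternatives, but not without WT 13 (adjusted p = 0.183) or WT 15 (0.221). Stat2, which acts with IRF9 below type I interferon receptors, stood at 114, 113, 95.2 and 108 CPM and did not pass (-0.16, edgeR SE 0.11 and adjusted p = 0.319), though its libraries did not overlap between genotypes.

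Of 6 feedback inhibitors, 1 rose and 3 fell (16.2% and 14.5% of all genes). Socs1, whose product blocks JAK kinases and is a main brake on interferon gamma signalling, had 632 and 705 counts in WT against 263 and 243 in Setd2-CD4 cre. At 48.2, 53.7, 25.6 and 22.3 CPM it did not overlap between genotypes (log2 fold change -1.09, edgeR SE 0.15 and adjusted p = 0.00218), and it passed under all 9 alternatives. Ptpn2, a phosphatase gene acting on JAK and STAT proteins, rose (0.70, edgeR SE 0.14 and adjusted p = 0.00967) and lost its call without WT 13 (adjusted p = 0.0532) or WT 15 (0.0605). Socs3 and Ptpn11 fell too (edgeR adjusted p = 0.0301 and 0.0271), and Ptpn6 and Pias1 did not pass. Among genes that restrain interferon receptors, Usp18 was therefore higher and Socs1 lower in the same libraries.

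Of 12 tested genes of pathways below nucleic acid sensors and Toll-like receptors, 6 rose and 1 fell (16.2% and 14.5% of all genes). They are mostly adaptors and kinases, but include the sensor genes Aim2, Mb21d1, Tlr7 and Tlr9. Of these sensors Aim2 rose, from 75.2 and 67.8 CPM in WT to 188 and 140 CPM in Setd2-CD4 cre. Its log2 fold change was 1.19 (edgeR SE 0.16 and adjusted p = 0.00223), and the other named sensors did not pass. Traf3, a ubiquitin ligase gene of those pathways, went from 52.1 and 53.5 CPM to 111 and 124 CPM (log2 fold change 1.16, edgeR SE 0.12 and adjusted p = 0.00115). Ticam1, which encodes the adaptor TRIF, went from 14.9 and 14.5 CPM to 32.4 and 31.4 CPM (1.12, edgeR SE 0.15 and adjusted p = 0.00203). Traf3 and Ticam1 passed under all 9 alternatives, and neither overlapped between genotypes.

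Of 41 further interferon-stimulated genes tested, 5 rose and 12 fell (16.2% and 14.5% of all genes), with a median log2 fold change of -0.26 against -0.01 for all genes. Adar, which encodes an enzyme that edits double-stranded RNA, went from 97.7 and 92.4 CPM to 45.5 and 46.5 CPM (-1.05, edgeR SE 0.11 and adjusted p = 0.00129). Ifitm2, which encodes a membrane protein that blocks virus entry, went the other way, from 47.1 and 48.4 CPM to 96.5 and 87.8 CPM (0.95, edgeR SE 0.12 and adjusted p = 0.00171). Of 23 further genes of the interferon gamma response, 5 rose and 4 fell (16.2% and 14.5% of all genes). Cd274, which encodes an inhibitory ligand, went from 78.4 and 78.3 CPM to 186 and 171 CPM (1.19, edgeR SE 0.11 and adjusted p = 0.000943). Tgtp1, a GTPase gene with the near-identical copy Tgtp2, went from 20.1 and 26.0 CPM to 6.53 and 4.77 CPM (-2.03, edgeR SE 0.23 and adjusted p = 0.00146). These 4 genes passed under all 9 alternatives, and each of the 2 classes held genes that moved in both directions.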

How the data were processed

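RNA was measured in 4 libraries, grouped by the genotype in the sample titles, whose numbers name the replicates. For WT 15 the title was used, since its cell type label starts with 14. The file that the authors deposited gives, per the file headers, a count of reads and an FPKM value for each gene and library. Bowtie2, RSEM, GRCm38.p6 and mm10 are named in the submitters' processing notes, without versions or roles. How reads shared between genes were counted, the use of strand and the gene models were not given in the sources used here. Counts, library totals and FPKM fit a single length for each of 12014 genes to within 0.0037%.

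Counts were tested with edgeR 4.0.16 in R 4.3.3 (TMM factors of 1.05 and 1.06 for WT, 0.934 and 0.964 for Setd2-CD4 cre, filterByExpr by genotype, robust quasi-likelihood fit, Benjamini-Hochberg adjustment over 12927 genes, threshold 0.05) and, as an alternative, with DESeq2 1.42.0. An exact two-sided permutation test of 2 libraries against 2 has 0.333 as its smallest p, so no gene was tested outside the model over all genes. A run of the test on simulated counts used the same spread in both genotypes, unlike these data, so no support is drawn from it. Replicates differed beyond counting noise (chi-square per degree of freedom 8.77 in WT and 18.6 in Setd2-CD4 cre), so each counted as 1 sample. A count of 0 allows up to 3 counts in a library, 0.240 to 0.273 CPM of the library total, for counting error only. Gene positions are from GENCODE M21 (GRCm38).

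The interferon genes and all lists were chosen with earlier results of these data known. Values in every library are given for genes past the threshold, receptor chains and the most abundant gene per length of each role (by mean FPKM over the 4 libraries), and for others chosen after their values were seen. Of the further genes, the 2 called genes with the smallest p per list are named, with Ifng, Stat2 and Socs1. Others of them, such as the further GBP and OAS genes, Tgtp2, Irgm2 and Aim2, were named after their values were seen. 1 further gene is not reported here. Of the listed symbols, Gbp6 and Itgam matched 2 rows each, and the row that GENCODE gives that name, or the one with more counts, was taken.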

Additional observations from a re-analysis of the deposited data

How the results depend on the processing

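Over 9 alternative settings, the 9 called genes kept the sign of their log2 fold change in each, and 3 of them (Irf2, Usp18 and Ddx58) kept their call in each. With 37 tested genes and those settings there were 333 values, of which 280 kept direction and side of the threshold, 13 lost a call, 16 gained one and 24 changed sign. All the sign changes were in genes that did not pass. Leaving out 1 library at a time gave 2 to 8 interferon genes higher and 1 to 9 lower, 10 to 24 of the further interferon genes higher and 9 to 29 lower, and 1282 to 5971 of all genes called. These fits leave 1 library in a genotype, which is assumed to vary like the other genotype. Left-out libraries gave log2 fold changes from -0.18 to 0.43 for Irf1, -0.21 to 0.30 for Ifih1, -0.042 to 0.016 for Zbp1, -0.35 to 1.32 for Ifit1, -0.043 to 0.11 for Oas1a, -0.63 to 0.85 for Oas2, -0.087 to 0.22 for Mx2 and -0.041 to 0.10 for Irgm1. Library totals moved the median of all genes to -0.16 and upper-quartile factors to -0.12. With library totals the log2 fold change turned to -0.0055 for Irf1, -0.083 for Ifih1, -0.12 for Oas1a, -0.088 for Mx2, -0.10 for Cmpk2, -0.044 for Isg15 and -0.12 for Irgm1. With upper-quartile factors it turned to -0.046 for Ifih1, -0.077 for Oas1a, -0.049 for Mx2, -0.064 for Cmpk2, -0.0046 for Isg15 and -0.078 for Irgm1. Each of these is above the shifted median of all genes. No paired analysis was possible because the genotypes share no replicate number.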
